A study of Mus musculus with 21 samples.

Results

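Transcripts of 35 genes of macrophages and antigen-presenting cells were followed in 21 mouse hearts. The genes were chosen by name, and all 35 were found among the 19096 genes of the deposited gene matrix. They were divided by known role into 8 genes of resident macrophages, 4 of recruited monocytes, 4 of major histocompatibility complex (MHC) class II, 3 of complement C1q, 4 Fc receptors and signalling adaptors, 8 of macrophages in general and 4 of all leukocytes. Each library was made from total RNA of freeze-clamped heart from a male C57BL/6NJ mouse, 8 to 10 weeks old when randomized, so the values are those of all cardiac cells together. The series crossed diet with renin, and its title presents the combination as a model of heart failure in which the ejection fraction is preserved. Control hearts (n = 4) came from mice on chow, and renin-only hearts (n = 6) from chow mice given an adeno-associated virus (AAV) that carries renin. Diet-only hearts (n = 6) came from control-vector mice, and combined hearts (n = 5) from AAV-Renin mice, kept for 10 weeks on a high-fat diet with 60% of its calories from fat. Hearts were taken 6 weeks after the retro-orbital injection. The control and diet-only arms are labelled "novirus", while the description of the series gives them a null vector. The promoter of the vector is not given in the sources used here, and replicate numbers name separate libraries.

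Macrophages are the main leukocytes of the healthy heart. Resident macrophages are largely maintained locally and clear debris, and are commonly recognised by genes such as Timd4, Lyve1 and Folr2. Monocytes that carry the chemokine receptor CCR2 enter from the blood in response to its ligands CCL2 and CCL7, and can become macrophages rich in MHC class II, which present peptides to CD4 T cells. Growth and survival of the lineage depend on colony stimulating factor 1 (Csf1) and its receptor (Csf1r). In whole tissue, fewer cells of a type and less RNA per cell cannot be told apart.

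The MHC class II genes are shown by sequence because in several groups a single heart was highest or lowest for all 4 transcripts (described with their values). Genes of this family are known to be switched on through a shared promoter module, in which the X box binds the RFX complex and the Y box binds NF-Y, with the transactivator CIITA recruited to both. In RefSeq promoters of GRCm38, available for 25 of the 35 genes, the 250 bases before each start were searched on both strands for a Y box written CTGATTGG and an X box core written GCAACT, which share no overlap. The Y box was found in 2 of 25 genes (H2-Aa and H2-Eb1) and in 4.43% of 27025 genes with a promoter. The X box core was found in 4 of 25 (also in Timd4 and Fcgr1) and in 10.3% of all genes. Both motifs lay in the windows of the same 2 genes, against 0.389% of all genes. The windows below run from 120 to 21 bases before the start, 5′ to 3′ on the strand of the gene, with the X box core and then the Y box in capitals. The H2-Aa window is chr17:34287844-34287943 on the minus strand and the H2-Eb1 window is chr17:34305747-34305846 on the plus strand.
H2-Aa: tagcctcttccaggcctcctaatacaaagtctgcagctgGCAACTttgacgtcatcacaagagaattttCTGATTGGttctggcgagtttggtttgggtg
H2-Eb1: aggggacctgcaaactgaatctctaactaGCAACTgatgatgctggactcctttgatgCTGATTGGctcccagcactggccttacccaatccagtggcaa
The motifs were 24 bases apart in H2-Aa and 23 bases apart in H2-Eb1. A match of letters is a description and not evidence of binding.

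Libraries held between 18.7 and 29.3 M estimated reads, and the 4 control libraries, with at most 21.4 M, were smaller than all others. Cardiomyocyte genes summed to 40105 CPM or more in every heart (CPM, read counts scaled to library size). In 5 libraries the atrial genes Sln, Myl4, Myl7, Dkk3 and Stard10 summed to at least 343 CPM, against at most 51.6 CPM in the other 16. They were control heart 3, renin-only hearts 1 and 3, diet-only heart 3 and combined heart 3, and counts were therefore also taken without those 5. Central neuron transcripts summed to between 155 and 251 CPM in the renin-only hearts and to at most 89.1 CPM in any other heart, so the renin-only group and this signal cannot be told apart. All 35 genes had reads in all 21 libraries and passed the filter on low counts, through to the lowest, Cd52 (7 to 46 reads) and Timd4 (10 to 34 reads).

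Per length, as TPM (transcripts scaled to length and library size), the most abundant of these transcripts was Lyz2, the secreted lysozyme of myeloid cells, at a mean of 51.8 TPM over 21 hearts. Cd74, the invariant chain that escorts MHC class II molecules, followed at 41.0 TPM and C1qa at 27.4 TPM. The 4 MHC class II genes together reached 99.0 TPM, the 3 C1q genes 63.8, the 4 monocyte genes 56.2, of which Lyz2 made up most, and the 8 resident genes 46.4. The lowest mean levels were those of Timd4 (0.362 TPM), Fcgr1 (0.574), Cx3cr1 (0.585) and Ccr2 (0.591). C1q, lysozyme and MHC class II were thus near the top of the range, and both chemokine receptors near the bottom.

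The coefficient of variation of the CPM values, taken for each gene as its median over the 4 groups, had a median of 29.2% over the MHC class II genes, 19.2% over the resident genes and 15.1% over the C1q genes. Ccr2 had the widest spread, 48.3%.

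**Figure D1:**
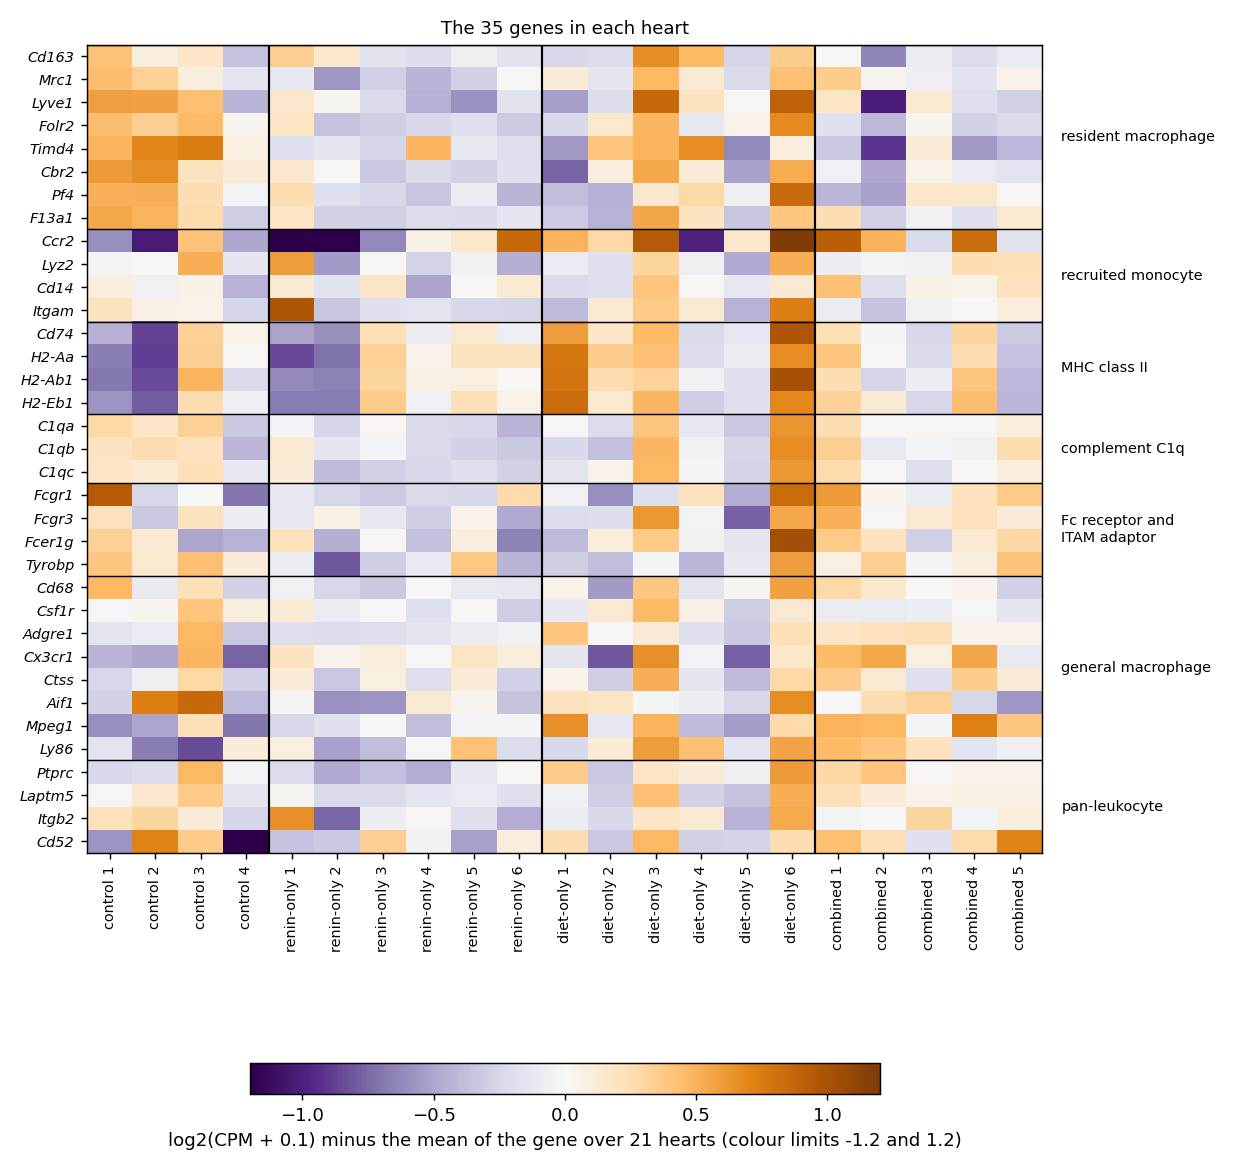
Heatmap of the 35 genes (rows, grouped by role) in 21 hearts (columns, by group and replicate); colour is log2(CPM + 0.1) minus the mean of the gene over all 21 hearts. The MHC class II rows take the same colour in control heart 3 (high) and control heart 2 (low), and the Folr2 row is lower in all 5 combined hearts than in the 4 control hearts.

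Groups were compared with edgeR's quasi-likelihood test, fitted once over 15216 genes and 21 hearts, with p-values adjusted over all of those genes by Benjamini and Hochberg, and calls were made at adjusted p under 0.05. Combined against control hearts gave 3 calls among the 35 genes (8.57%), with Folr2 and Timd4 lower and Mpeg1 higher, where 8.29% of all tested genes were called, 4.05% higher and 4.25% lower. Renin-only against control hearts gave 2 calls (5.71%), Mrc1 and Folr2, both lower, where 13.5% of all genes were called, 10.1% higher and 3.36% lower. Combined against renin-only hearts, which differ in diet under renin, gave 2 calls, Mpeg1 and Ptprc, both higher, where 22.6% of all genes were called, 9.8% higher and 12.8% lower. The share of called members was thus close to the background for the combined hearts against control and below it in the other 2 comparisons. Without the 5 atrial-rich libraries the counts were 3 (Folr2, Mpeg1 and Cx3cr1), 0 and 1 (Mpeg1). The calls against control were also lost for Folr2, Timd4 and Mpeg1 in combined hearts with a clock-gene score as a covariate (−0.58, −0.79 and 0.71), and for Mrc1 and Folr2 in renin-only hearts with a central nervous score in the model (−0.11 and −1.001). These fits also removed nearly all calls outside the 35, with 0 of 15216 called in combined against control under the clock score (1262 without it) and 38 in renin-only against control under the central nervous score (2048 without it). Clock genes of the Dbp phase summed to 637 to 716 CPM in control hearts and 512 to 627 in renin-only hearts. They summed to 624 to 689 CPM in diet-only hearts and 489 to 622 in combined hearts. The clock score was 3.38 to 3.62 in control hearts, without overlap with renin-only hearts (at most 3.17) or combined hearts (at most 3.22). In those comparisons with control the score and the group cannot be told apart, so the part of the clock in the results was not tested.

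Diet alone, diet-only against control hearts, gave no call among the 35 by edgeR, DESeq2 or limma, and 3 members had an unadjusted p under 0.05 in edgeR. The background there was 0.0657%, with 0.0131% higher and 0.0526% lower. For renin under the high-fat diet, combined against diet-only hearts, edgeR called 0 members, with 2 at an unadjusted p under 0.05, limma called 0 and DESeq2 called 1, Folr2 (−0.42, adjusted p = 0.0481). The background was 11.1%, with 6.07% higher and 5.08% lower. For the interaction of diet and renin, edgeR, DESeq2 and limma called 0 members and 1, Tyrobp, had an unadjusted p under 0.05 in edgeR. The background was 10.4%, with 3.14% higher and 7.3% lower. Over the 6 comparisons, edgeR called 5 members at least once and 30 never, and DESeq2 also called Cbr2 in renin-only against control.

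Over the 35 genes together, the median log2 difference in combined against control was 0.00, with 18 positive and 17 negative, against 0.01 over all tested genes. In renin-only against control the median was −0.17, with 25 of 35 negative, against −0.03 over all genes. Comparisons that share control or renin-only share the error of those hearts, so their values are given side by side and not as separate support.

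**Figure D2:**
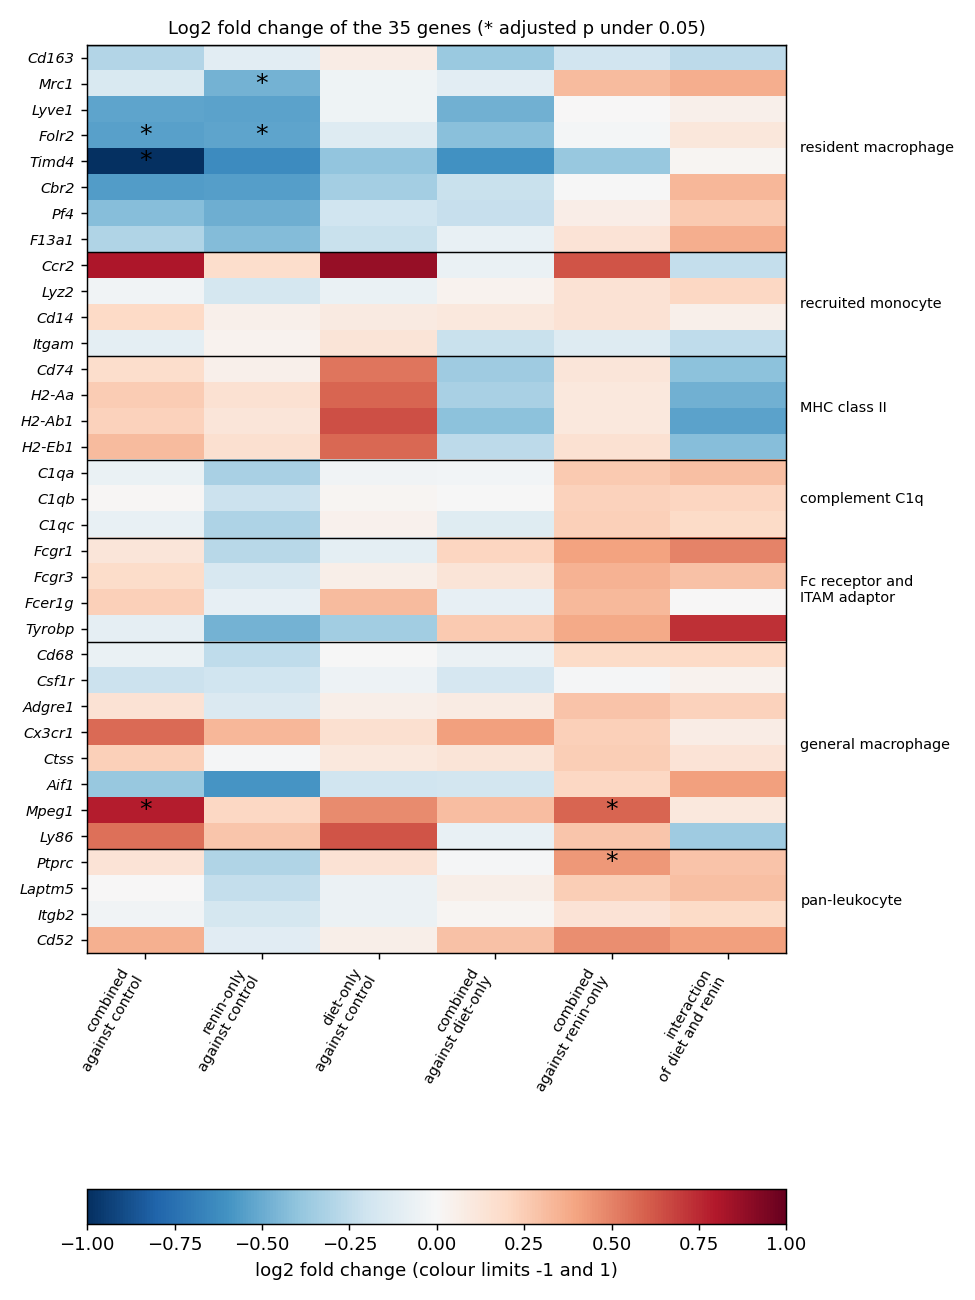
Heatmap of the log2 fold change of each of the 35 genes (rows, by role) in 6 comparisons (columns), with a star where the adjusted p was under 0.05. Stars stand at Folr2 and Timd4 (negative) and Mpeg1 (positive) in combined against control, at Mrc1 and Folr2 (negative) in renin-only against control, and at Mpeg1 and Ptprc (positive) in combined against renin-only.

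All 8 resident macrophage genes had negative log2 differences in combined against control, with 2 of 8 called and a median of −0.48 (range −1.01 to −0.15). Over all tested genes 4.25% were called lower there and 52.6% were positive. All 8 were also negative in renin-only against control, with 2 called and a median of −0.51, where 3.36% of all genes were called lower and 44.4% were positive. Diet alone gave a median of −0.17 with 7 of 8 negative, and renin under the high-fat diet gave −0.30 with 8 of 8 negative, and neither had a call by edgeR. Combined and renin-only hearts had a median difference of 0.00, with 4 genes on each side. The median stayed negative when the processing was changed or a heart left out, between −0.61 and −0.36 in combined against control and between −1.17 and −0.34 in renin-only against control.

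Folr2 (ENSMUSG00000032725, chr7:101839988-101857194, minus strand, GRCm38) encodes folate receptor beta of tissue macrophages. Its levels were 6.87, 6.39, 6.96 and 5.14 CPM in the 4 control hearts and 4.42, 3.75, 5.10, 4.12 and 4.29 CPM in the 5 combined hearts. Every combined heart was below every control heart, by a narrow margin at the closest pair. The log2 difference was −0.55 (SE 0.17, adjusted p = 0.042). In renin-only hearts Folr2 ran from 3.90 to 5.72 CPM with a median of 4.15, and 5 of 6 were below all control hearts. That difference was −0.53 (SE 0.16, adjusted p = 0.0275). Diet-only hearts spread over 4.23 to 8.11 CPM, median 5.36, and overlapped all other groups (−0.13 against control, adjusted p = 0.816). The group means were 6.34 ± 0.839 CPM (SD, n = 4) in control hearts, 4.39 ± 0.672 (n = 6) in renin-only hearts, 5.79 ± 1.496 (n = 6) in diet-only hearts and 4.34 ± 0.495 (n = 5) in combined hearts. Both calls were close to the threshold. Against diet-only hearts, combined hearts differed by −0.42 (adjusted p = 0.0742), which was called without diet-only heart 1 (−0.49, adjusted p = 0.0298). The call in combined against control was lost without control hearts 1, 2 or 3 (adjusted p = 0.103, 0.0827 and 0.0933) or combined hearts 1, 2, 4 or 5 (0.0658, 0.101, 0.0596 and 0.0849), and the call in renin-only hearts without control hearts 1, 2 or 3 (0.0937, 0.0664 and 0.0721) or renin-only hearts 2, 3 or 6 (0.0596, 0.0587 and 0.0504).

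Timd4 (ENSMUSG00000055546, chr11:46810800-46844332, plus strand) encodes TIM-4, a phosphatidylserine receptor used in the uptake of apoptotic cells. It measured 1.195, 1.39, 1.45 and 0.873 CPM in control hearts and 0.632, 0.386, 0.897, 0.523 and 0.593 CPM in combined hearts. Combined heart 3 lay just above the lowest control heart and the other 4 were below all of them. The log2 difference was −1.01 (SE 0.31), which passed the threshold (adjusted p = 0.0452) and was the lowest of the 35 values in that comparison. Renin-only hearts held 0.665 to 1.19 CPM, median 0.720, and the difference from control of −0.63 was not called (adjusted p = 0.177). These values rest on 18 to 28 reads per control heart and 10 to 25 per combined heart, so their counting error is large. The call was lost under 15 of 19 alternatives, among them thinning all libraries to the smallest (−0.99, adjusted p = 0.0556), no filter on low counts (−1.01, adjusted p = 0.0658) and only the 2 groups compared in the fit (−1.01, adjusted p = 0.0626). It was also lost without any of control hearts 1 to 4 (adjusted p = 0.0842, 0.111, 0.1002 and 0.0549) and without combined hearts 1, 2, 4 or 5 (0.0791, 0.110, 0.0661 and 0.0881).

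Mrc1 (ENSMUSG00000026712, chr2:14229392-14332057, plus strand) encodes the mannose receptor CD206. Control hearts held 20.5, 18.9, 15.9 and 13.6 CPM, and renin-only hearts ran from 10.1 to 14.9 CPM with a median of 12.3. Of the renin-only hearts, 4 of 6 were below every control heart, and the ranges overlapped at control heart 4. Mrc1 fell in renin-only hearts, with a log2 difference of −0.47 (SE 0.14, adjusted p = 0.0284). In combined hearts, with 19.1, 15.2, 14.3, 13.4 and 15.5 CPM, the difference from control was −0.15 (adjusted p = 0.571), and against renin-only it was 0.32 (adjusted p = 0.0911), which was not called in this fit but was with only those 2 groups fitted (0.32, adjusted p = 0.0429). With central nervous transcripts in the model the renin-only difference was −0.11 (adjusted p = 0.966). The call was also lost without control hearts 1 or 2 (adjusted p = 0.142 and 0.103) or renin-only hearts 2, 3 or 4 (0.0683, 0.0531 and 0.0588).

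The other 5 resident genes were not called in the edgeR fit with a term per group only, and DESeq2 called Cbr2 in renin-only against control (−0.55, adjusted p = 0.0473). Cbr2, a carbonyl reductase found in these cells, measured 12.5, 12.9, 9.40 and 8.87 CPM in control hearts and 7.88, 5.76, 8.47, 7.60 and 7.32 CPM in combined hearts. These ranges did not overlap, yet the difference of −0.56 (SE 0.21) missed the threshold (adjusted p = 0.104). It was called with the central nervous score in the model (−0.74, adjusted p = 0.0288) or with only these 2 groups fitted (−0.56, adjusted p = 0.0380). Lyve1, a hyaluronan receptor of resident macrophages and of lymphatic endothelium, measured 20.9, 20.8, 18.8 and 10.3 CPM in control hearts and 15.8, 6.80, 15.2, 12.1 and 11.5 CPM in combined hearts. Its ranges overlapped at control heart 4, and its difference was −0.53 (SE 0.29, adjusted p = 0.292). The lymphatic endothelial genes Prox1, Pdpn, Flt4, Mmrn1, Ccl21a and Reln summed to 101 to 107 CPM in control hearts, 77.6 to 105 in renin-only hearts, 94.5 to 113 in diet-only hearts and 85.7 to 101 in combined hearts, and its part in the Lyve1 values was not tested. Pf4, a chemokine of platelets that cardiac macrophages also transcribe, differed by −0.43 and −0.49 in combined and in renin-only against control hearts (adjusted p = 0.241 and 0.140). F13a1, the A subunit of coagulation factor XIII and the resident gene with the most reads, measured 34.9, 33.5, 28.6 and 19.4 CPM in control hearts and 28.3, 19.5, 23.1, 21.1 and 26.3 CPM in combined hearts. Renin-only hearts ran from 19.7 to 26.8 CPM, median 20.6, and diet-only hearts from 17.6 to 35.1, median 23.2. Control heart 4 lay below all renin-only and combined hearts, so the groups overlapped. In combined and renin-only hearts F13a1 differed from control by −0.30 and −0.43 (adjusted p = 0.383 and 0.150), the second of which was called without control heart 4 (−0.59, adjusted p = 0.0447). The haemoglobin scavenger receptor Cd163 differed by −0.30 and −0.11 (adjusted p = 0.384 and 0.802). The 8 resident genes together summed to 76.6 to 127 CPM in control hearts, 73.5 to 99.5 in renin-only hearts, 73.1 to 135 in diet-only hearts and 66.0 to 97.5 in combined hearts, so the summed ranges of all 4 groups overlapped. Control heart 4 was at or near the bottom of its group for Folr2, Timd4, Mrc1, F13a1, Lyve1 and Cbr2. That heart also had the highest summed B lymphocyte transcripts, 27.6 CPM against 4.50 to 10.4 in the other 20, and their part in the resident values was not tested. Mesothelial and epicardial genes summed to 14.1 to 19.4 CPM in control hearts, 5.26 to 16.6 in renin-only hearts, 5.12 to 23.0 in diet-only hearts and 6.84 to 28.0 in combined hearts. The medians of renin-only (8.47 CPM), diet-only (11.3 CPM) and combined hearts (7.71 CPM) were each below the lowest control heart. In renin-only hearts 5 of 6 of these sums were below every control heart, 5 of 5 genes of the list were negative and 1, Wt1, was called lower (−0.66, SE 0.17, adjusted p = 0.00926), and their part in the resident values was not tested.

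**Figure D3:**
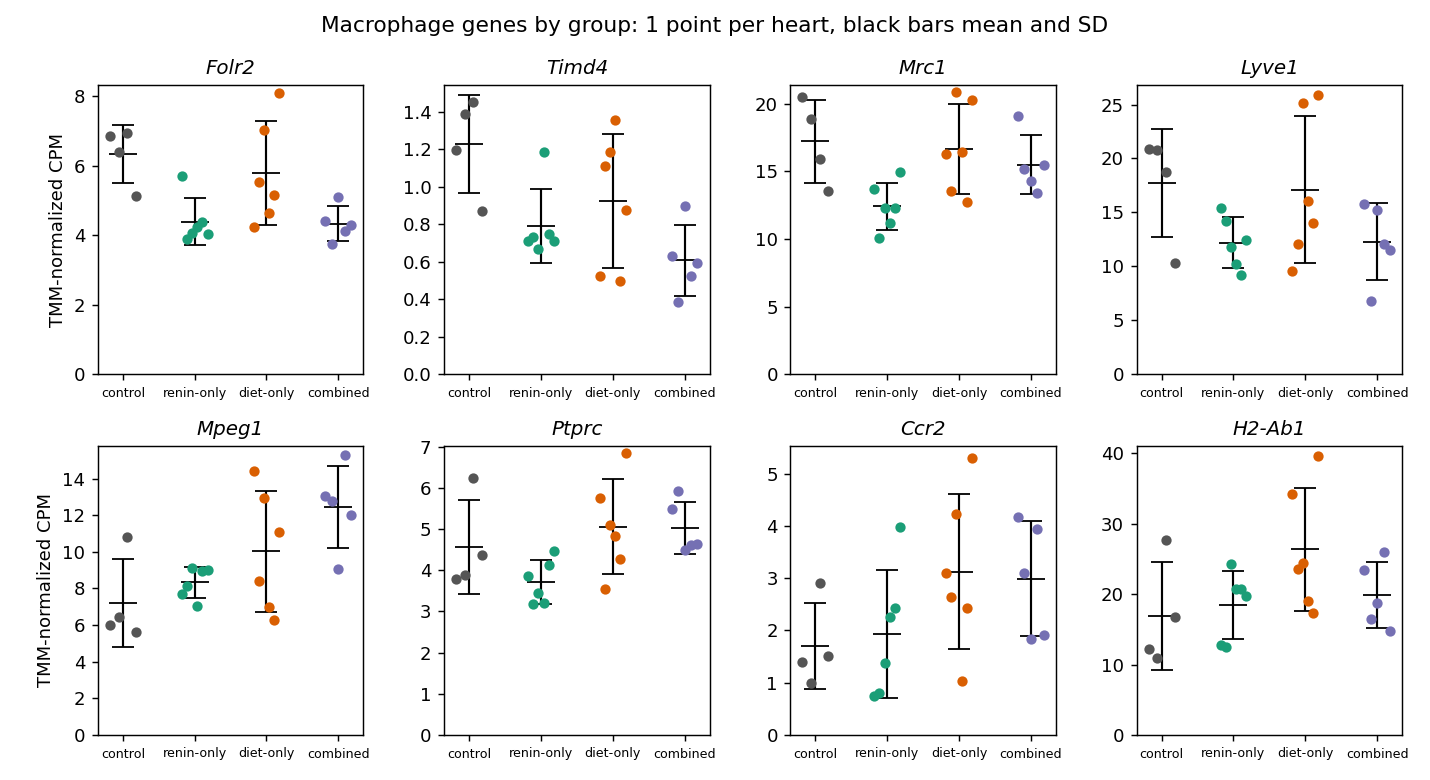
TMM-normalized CPM (vertical axes, linear) in each heart for 8 genes, by group (control n = 4, renin-only n = 6, diet-only n = 6, combined n = 5); points are hearts and bars are the mean and SD. The means of Folr2 and Timd4 are lowest in the renin-only and combined groups, Mpeg1 rises to 12.4 ± 2.25 CPM in combined hearts from 7.22 ± 2.41 in control hearts, and the ranges of Ccr2 and H2-Ab1 overlap in all groups.

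No gene of recruited monocytes was called by edgeR in any of the 6 comparisons. Ccr2, the receptor for CCL2 and CCL7, measured 1.39, 0.9998, 2.91 and 1.503 CPM in control hearts and 4.17, 3.09, 1.83, 3.94 and 1.92 CPM in combined hearts. Diet-only hearts spread from 1.04 to 5.31 CPM, median 2.87, and renin-only hearts from 0.744 to 3.99, median 1.81, so every group overlapped every other. The log2 differences from control were 0.87 for diet-only (interval of 2 SE on each side −0.07 to 1.82, adjusted p = 0.517) and 0.81 for combined (−0.16 to 1.78, adjusted p = 0.331). These intervals hold both no difference and a difference of several-fold. Lyz2 was more precise, with 63.2, 64.3, 92.6 and 59.0 CPM in control hearts and 61.4, 63.5, 62.8, 77.1 and 76.1 in combined hearts. For Lyz2 no difference between groups exceeded 0.17 in size, and the interaction was 0.21 (adjusted p = 0.732). Reads of Lyz2 may be divided with its near-identical copy Lyz1, so its level is uncertain. Cd14, a co-receptor for lipopolysaccharide, and Itgam, the alpha chain of the integrin Mac-1, were not called either.

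The 4 MHC class II genes shared a sign within each comparison, but none was called by edgeR, DESeq2 or limma in any of the 6 comparisons, and only H2-Ab1 in diet-only against control had an unadjusted p under 0.05. Cd74 measured 35.2, 26.2, 60.3 and 49.7 CPM in control hearts. Diet-only hearts ran from 40.9 to 94.1 CPM with a median of 60.3, and renin-only hearts from 31.7 to 56.7 with a median of 45.7. Combined hearts held 56.8, 47.1, 40.3, 59.2 and 38.7 CPM. The groups overlapped throughout, and the log2 difference of diet-only from control was 0.53 (SE 0.26, adjusted p = 0.464). For H2-Ab1, the beta chain of I-A, it was 0.64 (SE 0.29, unadjusted p = 0.0396, adjusted p = 0.431), and for H2-Aa and H2-Eb1, the alpha chain of I-A and the beta chain of I-E, it was 0.58 for each (adjusted p = 0.467 and 0.468). The list median in diet-only against control was 0.58, with 4 of 4 positive under every setting tried (medians 0.42 to 0.98), and in combined against diet-only it was −0.34, with 4 of 4 negative under every setting. In renin-only against control and in combined against renin-only the sign of the list median depended on the setting (−0.02 to 1.67, and −1.13 to 0.20).

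The hearts at the extremes of a group were shared by the 4 genes in part. Among control hearts, heart 3 was highest and heart 2 lowest for 4 of 4 genes, among renin-only hearts heart 3 was highest for 4 of 4, and among combined hearts heart 5 was lowest for 4 of 4. Among combined hearts heart 4 was highest for 3 of 4, and among diet-only hearts heart 4 was lowest for 3 of 4. The lowest renin-only heart was heart 1 for 2 genes and heart 2 for the other 2, and the highest diet-only heart was heart 1 for 2 and heart 6 for 2. H2-Ab1, as an example, measured 12.2, 10.9, 27.7 and 16.8 CPM in control hearts, and 23.4, 16.4, 18.8, 26.0 and 14.8 CPM in combined hearts. Summed over the 4 genes, the hearts held 59.1 to 136 CPM in control hearts, 68.4 to 131 in renin-only hearts, 92.7 to 197 in diet-only hearts and 83.4 to 136 in combined hearts. The ratio of this sum to that of the 8 resident genes ran from 0.494 in control heart 2 to 2.41 in diet-only heart 1, so the balance of the 2 groups of transcripts varied between hearts. Control heart 3 and renin-only heart 3, both highest in MHC class II, are among the 5 libraries with high atrial transcripts, and the part of atrial tissue in these values was not tested. H2-Ab1, H2-Aa and H2-Eb1 lie in this order on chromosome 17, between positions 34257689 and 34316674, and H2-Aa and H2-Eb1 are the genes whose promoter windows hold both motifs. The isoform Cd74-201 carried 65.5 ± 2.59% of Cd74 transcripts in control hearts, 70.8 ± 3.56% in renin-only hearts, 71.0 ± 3.66% in diet-only hearts and 68.3 ± 1.86% in combined hearts (mean ± SD of estimated shares), a description with no test.

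**Figure D4:**
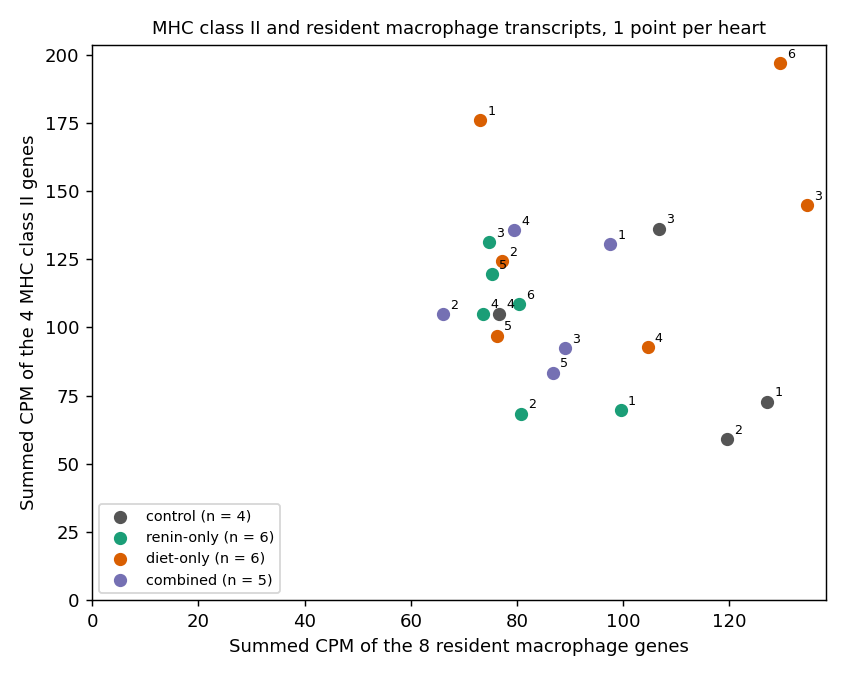
Summed CPM of the 4 MHC class II genes (vertical) against summed CPM of the 8 resident macrophage genes (horizontal) in 21 hearts, coloured by group and numbered by replicate. Control heart 2 is lowest in MHC class II at 59.1 CPM and diet-only reaches 197 CPM, while no group occupies an area of its own.

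The 3 C1q genes, which encode the chains of the first complement component and are made largely by macrophages, were not called by edgeR in the fit over all 4 groups, where 1 of them, C1qc, had an unadjusted p under 0.05 in renin-only against control. C1qa measured 30.1, 28.1, 31.3 and 19.9 CPM in control hearts and 18.4 to 25.1 CPM, median 21.1, in renin-only hearts. Only control heart 4 fell within the renin-only range. The differences in renin-only hearts were −0.33 for C1qa (adjusted p = 0.201), −0.22 for C1qb (0.522) and −0.31 for C1qc (0.176), with 3 of 3 negative under all settings tried. In combined against renin-only 3 of 3 were positive under all settings, with a median of 0.24. With only the 2 groups compared in the fit, C1qc was called in renin-only against control (−0.30, adjusted p = 0.0489) and C1qa in combined against renin-only (0.26, adjusted p = 0.0249).

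No Fc receptor or signalling adaptor was called by edgeR in the fit over all 4 groups. Tyrobp encodes DAP12, the adaptor of TREM2 and other activating receptors. It measured 3.64, 3.06, 3.74 and 2.96 CPM in control hearts, 1.53 to 3.61 (median 2.37) in renin-only hearts, 2.04 to 4.21 (median 2.37) in diet-only hearts, and 2.91, 3.52, 2.69, 2.93 and 3.66 in combined hearts. The groups overlapped. Renin gave −0.47 on chow (adjusted p = 0.154), and the interaction of diet and renin was 0.73 (SE 0.29, unadjusted p = 0.0178, adjusted p = 0.114). The interaction was called without renin-only heart 5 (0.87, adjusted p = 0.0382) or diet-only heart 6 (0.92, adjusted p = 0.0209), and the difference on chow without renin-only heart 5 (−0.61, adjusted p = 0.0446). All 4 genes of this role were negative in renin-only against control (median −0.22) and positive in the interaction (median 0.39). For Fcgr3, a low-affinity IgG receptor, combined hearts held 7.80, 5.41, 5.96, 6.31 and 5.89 CPM and renin-only hearts 3.88 to 5.69, median 4.999, a difference of 0.34 (adjusted p = 0.202).

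Of the 8 general macrophage genes, Mpeg1 was the only one called. Mpeg1 (ENSMUSG00000046805, chr19:12460779-12465283, plus strand) encodes perforin-2, a pore-forming protein that acts on engulfed bacteria. Control hearts held 6.03, 6.44, 10.8 and 5.62 CPM and combined hearts 13.1, 12.8, 9.04, 15.3 and 12.03 CPM. Except for combined heart 3, every combined heart exceeded every control heart, and control heart 3 stood well above the other 3. Mpeg1 rose by 0.79 (SE 0.23, adjusted p = 0.0343). Renin-only hearts ran from 7.04 to 9.09 CPM, median 8.54, and combined hearts were above them by 0.58 (SE 0.20, adjusted p = 0.0368), with combined heart 3 again inside the lower range. Diet-only hearts spread over 6.29 to 14.4 CPM, median 9.75, and their difference from control of 0.47 was not called (adjusted p = 0.439). Without control heart 3 the difference of combined from control was 1.05 (adjusted p = 0.00668), and it was lost without control hearts 1, 2 or 4 (0.106, 0.0983 and 0.125) or combined hearts 1, 2, 4 or 5 (0.0753, 0.0658, 0.0599 and 0.0643). With central nervous transcripts in the model the difference from renin-only hearts was 0.11. It was also lost without any of renin-only hearts 1 to 5 (adjusted p = 0.0576 to 0.0889) or combined hearts 1, 2, 4 or 5 (0.0602 to 0.0931).

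Csf1r, the receptor for colony stimulating factor 1, measured 28.3, 28.9, 37.7 and 30.3 CPM in control hearts and 26.8, 26.6, 27.1, 28.2 and 26.0 CPM in combined hearts. The ranges did not overlap, but the gap was small and the difference of −0.22 (SE 0.11) was not called (adjusted p = 0.248). Cx3cr1, the fractalkine receptor, measured 1.74, 1.67, 3.37 and 1.36 CPM in control hearts and 3.33, 3.52, 2.51, 3.56 and 2.20 CPM in combined hearts. Only control heart 3 lay within the combined range, and the difference was 0.57 (SE 0.27, adjusted p = 0.205). Without control heart 3 it was 0.93 and was called (adjusted p = 0.0378). Adgre1, which encodes the F4/80 antigen, did not overlap between combined and renin-only and differed by 0.29 (adjusted p = 0.108, and 0.0140 with only these 2 groups fitted). Ly86, the MD-1 partner of RP105, differed by 0.63 in diet-only against control (unadjusted p = 0.0196, adjusted p = 0.363), and Aif1 (IBA1) by −0.59 in renin-only against control (adjusted p = 0.222).

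Ptprc (ENSMUSG00000026395, chr1:138062861-138175708, minus strand) encodes CD45, the phosphatase carried by all leukocytes. Renin-only hearts ran from 3.17 to 4.47 CPM with a median of 3.65, and combined hearts held 5.48, 5.91, 4.49, 4.60 and 4.64 CPM. All 5 combined hearts were above all 6 renin-only hearts, the nearest by a small margin. Ptprc was higher in combined hearts by 0.43 (SE 0.16, adjusted p = 0.0470). Control hearts, with 3.79, 3.89, 6.23 and 4.36 CPM, overlapped both groups. All 4 leukocyte genes were negative in renin-only against control (median −0.21) and positive in combined against renin-only (median 0.34). Laptm5, a lysosomal membrane protein of blood cells, did not overlap between the renin groups either, with 17.7, 16.3, 15.6, 15.9 and 15.9 CPM in combined hearts and 12.9 to 15.3 in renin-only hearts, and its difference of 0.24 was not called (adjusted p = 0.214), except with only these 2 groups fitted (adjusted p = 0.0114). The Ptprc call was lost without any of renin-only hearts 1 to 5 (adjusted p = 0.0583 to 0.108) or combined hearts 1, 2 or 5 (0.128, 0.132 and 0.0610). With the central nervous signal of the renin-only hearts as a covariate its difference was −0.25.

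Genes of ligands that attract and sustain macrophages were read in the same fit. In renin-only against control, 5 of 16 tested ligands and regulators rose and 1 fell, where 10.1% of all tested genes were called higher and 3.36% lower. The gene that fell was Ifngr2, a chain of the interferon gamma receptor (−0.28, adjusted p = 0.0431), and its call was lost under 16 of 21 alternatives, among them leaving out control hearts 1, 2 or 4 or renin-only hearts 1, 2, 3, 4 or 6 (adjusted p = 0.0611 to 0.189). Ccl2, the main ligand of CCR2, was 4.12 to 7.02 CPM in control hearts and 18.4 to 24.0 CPM in renin-only hearts, without overlap, a rise of 1.998 (SE 0.12, adjusted p = 4.386e-11). Ccl7, a second CCR2 ligand, rose by 1.76 (SE 0.20, adjusted p = 4.933e-07), and Cx3cl1, the ligand of CX3CR1, from 13.3 ± 1.46 to 25.4 ± 1.72 CPM (0.94, SE 0.09, adjusted p = 6.618e-08). Neither receptor gene was called in these hearts (Ccr2 0.18, adjusted p = 0.874, and Cx3cr1 0.33, adjusted p = 0.490). Ccl2 was 6.36 ± 0.285 CPM in diet-only hearts and 5.90 ± 0.719 CPM in combined hearts, near the control level, and its interaction of diet and renin was −2.10 (adjusted p = 7.596e-09). These rises were seen in the same 6 hearts that carried central nervous transcripts, where 7 of 7 tested central neuron genes, 5 of 5 oligodendrocyte genes and 4 of 5 astrocyte genes were called higher. With that signal as a covariate the differences from control were 1.104 for Ccl2 (adjusted p = 0.137), −0.16 for Ccl7 and 0.39 for Cx3cl1, none of them called, and the interaction for Ccl2 was −1.157 (adjusted p = 0.349). Of 7 tested microglial genes edgeR called 0 in renin-only against control, 2 had an unadjusted p under 0.05, and the list summed to 29.8 to 42.9 CPM there against 32.8 to 49.0 in control hearts. That covariate and the renin-only group cannot be told apart, so the part of nervous tissue in the ligand values was not tested.

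Csf1 rose in both renin comparisons with control and under the high-fat diet. It was 50.3 ± 13.3 CPM in control hearts, 65.3 ± 2.28 in renin-only hearts, 53.1 ± 3.72 in diet-only hearts and 66.5 ± 5.42 in combined hearts. The rises were 0.38 on chow (SE 0.10, adjusted p = 0.0141), 0.40 in combined against control (SE 0.11, adjusted p = 0.022) and 0.32 in combined against diet-only (adjusted p = 0.0301). Ccl12, another CCR2 ligand, rose by 1.35 in combined against diet-only (SE 0.40, adjusted p = 0.0330) from a low level, 0.293 CPM on average. Without control heart 3 the Csf1 differences from control were 0.58 in renin-only hearts (adjusted p = 2.405e-06) and 0.61 in combined hearts (adjusted p = 5.015e-05), and with only the 2 groups compared in the fit they were 0.39 (adjusted p = 0.0559) and 0.40 (adjusted p = 0.121), not called. The Csf1 calls were lost without single hearts, namely control hearts 1, 2 or 4 on chow (adjusted p = 0.0573, 0.0764 and 0.0759), those 3 (0.0778, 0.0953 and 0.0964) or combined hearts 1 or 2 (0.0590 and 0.0587) in combined against control, and diet-only hearts 4, 5 or 6 (0.0581, 0.0518 and 0.0548) or combined hearts 1 or 2 (0.0925 and 0.0928) under the high-fat diet. With the clock score in the model the Csf1 differences were 0.25 on chow, 0.23 in combined against control and 0.21 in combined against diet-only, and that of Ccl12 was 1.45, none of them called (adjusted p = 0.2495, 0.741, 0.610 and 0.373). With the central nervous score the renin-only difference of Csf1 was 0.35 (adjusted p = 0.787) and the Ccl12 difference was 1.24 (adjusted p = 0.0576), neither called. The Ccl12 call was lost without diet-only hearts 3, 5 or 6 (0.0539, 0.0695 and 0.0577) or combined hearts 1, 2 or 5 (0.0925, 0.0596 and 0.0731). It was also lost without the 5 libraries with high atrial transcripts (1.29, adjusted p = 0.0749). For diet alone edgeR called 0 of the 16 ligands and regulators, 2 of which had an unadjusted p under 0.05, and 0 of 12 dendritic cell genes, 3 of which did.

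**Figure D5:**
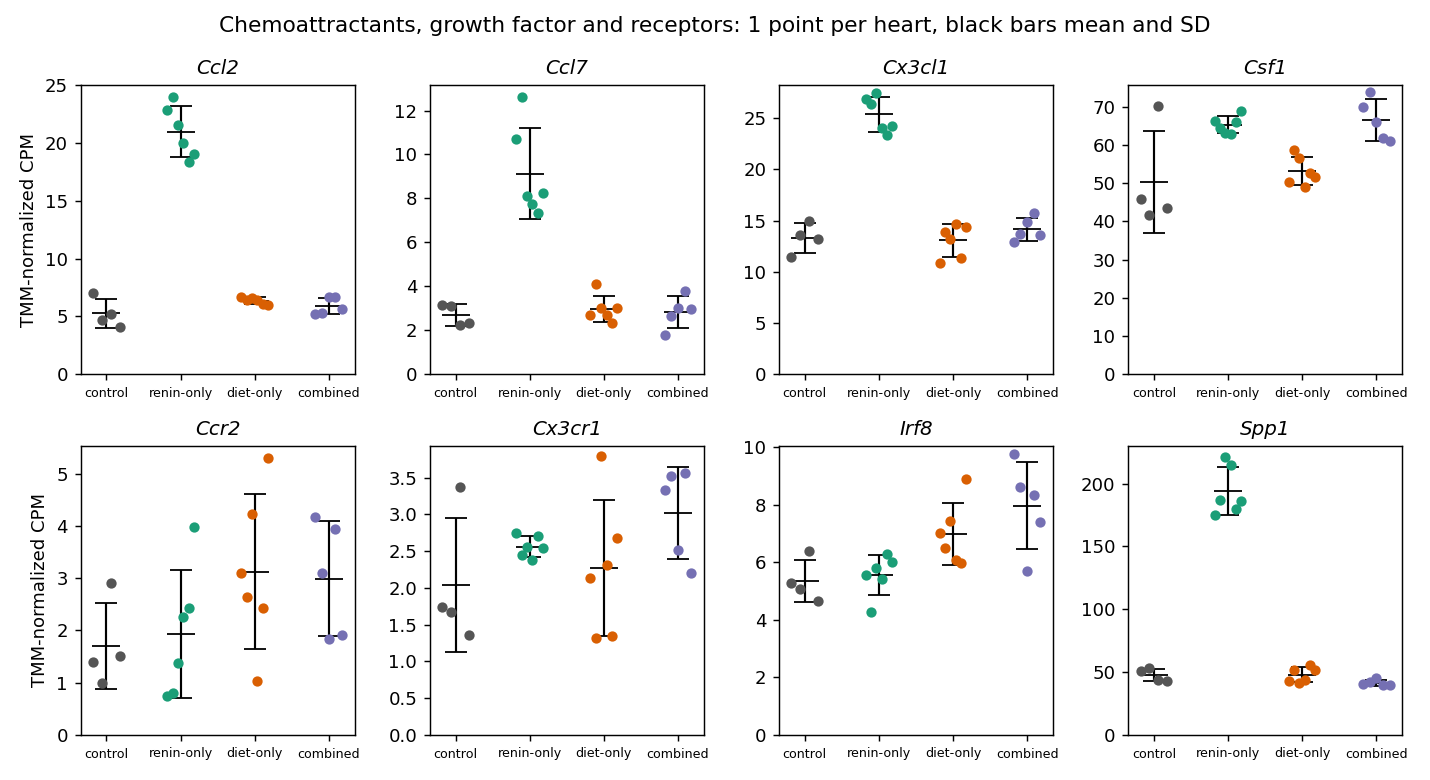
TMM-normalized CPM (vertical axes, linear) in each heart for Ccl2, Ccl7, Cx3cl1, Csf1, Ccr2, Cx3cr1, Irf8 and Spp1, by group, with points for hearts and bars for mean and SD. Ccl2, Ccl7, Cx3cl1 and Spp1 are separated from all other groups in renin-only hearts, while Ccr2 and Cx3cr1 overlap across groups.

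Further genes of the lineage, from lists outside the 35, were read in the same fit. Of 12 tested dendritic cell genes, 2 rose in combined against control, where 4.05% of all genes were called higher. These were Sirpa (0.49, SE 0.11, adjusted p = 0.00601), a receptor for CD47, and Irf8 (0.57, SE 0.15, adjusted p = 0.0208), a transcription factor of dendritic cells and monocytes. All 12 were positive, with a median of 0.48, against 0.01 over all genes. With the clock score in the model neither was called (Sirpa 0.67, adjusted p = 0.172, and Irf8 0.33, adjusted p = 0.738). The Irf8 call was lost without control hearts 1, 2 or 4 (adjusted p = 0.0533, 0.0626 and 0.0830) or combined heart 1 (0.0627). In combined against renin-only 3 of 12 were called higher, where 9.8% of all genes were, namely Irf8, Zbtb46 and Sirpa, and none of the 3 was called with the central nervous score in the model (−0.27, −0.27 and 0.56). The Zbtb46 call was lost without renin-only heart 1 (0.0505) or combined hearts 1 or 5 (0.0522 and 0.0556), and that of Sirpa without any of renin-only hearts 1 to 5 or combined hearts 2 to 5 (0.0581 to 0.140). Without the 5 libraries with high atrial transcripts Irf8 remained called, while Zbtb46 (0.29, adjusted p = 0.074) and Sirpa (0.21, adjusted p = 0.233) did not. Sirpa was also not called with the replicate number as a block (0.26, adjusted p = 0.058). Of 17 further resident macrophage genes, 1 fell in renin-only hearts, where 3.36% of all genes were called lower, the scavenger receptor Stab1 (−0.36, SE 0.09, adjusted p = 0.00883), 14 of 17 were negative there, and Siglec1, the sialic acid receptor CD169, was higher in combined hearts than in renin-only (0.63, SE 0.19, adjusted p = 0.0155). The Stab1 call was lost without control heart 3 (adjusted p = 0.0626) and that of Siglec1 without renin-only heart 3 or combined heart 1 (0.0518 and 0.0810). Both were also lost without the 5 libraries with high atrial transcripts (Stab1 −0.27, adjusted p = 0.074, and Siglec1 0.58, adjusted p = 0.0752). Of 13 tested genes of monocytes and activated macrophages, 2 rose in renin-only hearts, where 10.1% of all genes were called higher. These were Spp1, or osteopontin (47.6 ± 5.03 CPM in control hearts and 194 ± 19.2 in renin-only hearts, 2.03, SE 0.09, adjusted p = 1.691e-13), and S100a4 (1.08, SE 0.24, adjusted p = 0.00276). Neither is made by macrophages alone. With the central nervous score in the model Spp1 remained called in renin-only against control, while S100a4 (0.55, adjusted p = 0.880), Stab1 (−0.47, adjusted p = 0.650) and, in combined against renin-only, Siglec1 (0.34, adjusted p = 0.999) did not. Of 12 tested genes of MHC class II control and peptide loading, 1 rose in renin-only hearts, where 10.1% of all genes were called higher, and 1 in combined against diet-only, where 6.07% were. They were March1, a ubiquitin ligase of MHC class II (0.94, SE 0.30, adjusted p = 0.0362), and the protease Ctsl (0.22, SE 0.06, adjusted p = 0.0206). March1 was not called without control hearts 2, 3 or 4 or renin-only hearts 1 or 2 (adjusted p = 0.0616 to 0.139), nor Ctsl without combined hearts 1, 2 or 5 (0.0587, 0.0698 and 0.0637). Without the 5 libraries with high atrial transcripts March1 was not called (0.72, adjusted p = 0.261), while Ctsl was. March1 was also not called with the clock score (0.77, adjusted p = 0.273) or the central nervous score (−1.06, adjusted p = 0.7095), nor Ctsl with the clock score (0.19, adjusted p = 0.452). With only the 2 groups compared in the fit neither was called (adjusted p = 0.0643 and 0.0918).

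The authors' deposited table of their own comparison is headed as high-fat diet with virus and does not state the reference group. Of the 35 genes, 3 had an adjusted p under 0.05 in the authors' deposited table (8.57%), where 8.04% of the 16122 genes with an adjusted p were, 3.81% higher and 4.22% lower. In the authors' deposited table these were Mpeg1 (log2 fold change 0.47, adjusted p = 0.0133), Folr2 (−0.37, adjusted p = 0.0196) and Timd4 (−0.40, adjusted p = 0.0400). The authors' deposited table gives 20 of the 35 genes a negative fold change, and 48.54% of its 19096 genes.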

How the data were processed

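RNA-seq of 21 hearts was used, grouped by the diet and vector in the sample titles. The authors deposited estimated counts and TPM per transcript for each heart in the layout of Salmon output, and the submitters' processing notes name Salmon 1.10.2, DESeq2 1.40.2 and the builds GRCm38 and mm10. The authors' deposited comparison gives each gene its log2 fold change with the adjusted p-value, with the reference group not given in the sources used here, and 21 per-library columns of that table were not used. Transcripts were matched without version to GENCODE M21 (116772 of 119215, 97.95%), with at most 0.925% of the reads of a heart unmatched, and summed to genes and rounded. In edgeR 4.0.16 (R 4.3.3) 15216 of 23718 genes passed filterByExpr, and they held 99.964% of reads. TMM factors (0.886 to 1.09), one robust quasi-likelihood fit over all 21 hearts with a term per group (common biological coefficient of variation 0.1538) and Benjamini-Hochberg adjustment over tested genes gave each p. CPM are TMM-normalized, SE is the size of the log2 fold change over the square root of F, and intervals are 2 SE on each side. DESeq2 1.42.0 and limma 3.58.1 on log2(TPM + 0.5), with other filters, scalings and covariates, were tried as alternatives, and the fit was tested on simulated data. Replicates are separate hearts, with 4 to 6 a group. The members and lists were chosen with earlier results of these data known. Members given in full were those called in any comparison and the member of each role with the most reads. At most 3 called genes per direction and comparison of each other list were named, except that Csf1 was added in renin-only against control. Ccr2, Cbr2, Lyve1, Pf4, Cd163, Adgre1, Ly86, Aif1, Cx3cr1, Tyrobp, H2-Ab1 and the isoform of Cd74 were singled out after their values were seen. Promoters are from RefSeq.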

Additional observations from a re-analysis of the deposited data

Results flagged for a closer look

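Among 140 sets of hearts (1 gene in 1 group) 9 held a heart far from the others, where chance gives about 1 in 20, or 7. In renin-only hearts these were Folr2 in heart 1 (5.72 CPM, the others 3.90 to 4.40), F13a1 in heart 1 (26.8 CPM, the others 19.7 to 21.7), Itgam in heart 1 (9.95 CPM, the others 3.94 to 4.51), Timd4 in heart 4 (1.19 CPM, the others 0.665 to 0.746) and Fcgr1 in heart 6 (1.71 CPM, the others 1.11 to 1.29). In control heart 3 stood above the others for Lyz2 (92.6 CPM against 59.0 to 64.3) and Mpeg1 (10.8 CPM against 5.62 to 6.44), and heart 4 stood below them for C1qb (13.8 CPM against 21.02 to 21.9). In diet-only hearts, Tyrobp reached 4.21 CPM in heart 6 against 2.04 to 2.69 in the others. Renin-only heart 1 and control heart 3 are among the 5 libraries with high atrial transcripts, whose part in these values was not tested.

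The effect of renin differed between the diets for 5 genes of the lists of ligands, monocytes and activated macrophages, by edgeR's quasi-likelihood test of the interaction, where 10.4% of all tested genes were called. The log2 differences of effects were −2.23 for Spp1 (adjusted p = 1.086e-11), −2.10 for Ccl2 (adjusted p = 7.596e-09), −1.82 for Ccl7 (adjusted p = 3.914e-05), −0.82 for Cx3cl1 (adjusted p = 5.775e-05) and −1.49 for S100a4 (adjusted p = 0.00356). In each, the values were highest in the 6 renin-only hearts, which also carried central nervous transcripts, and those cannot be told apart from the group. With the central nervous score in the model Spp1 remained called, and Ccl2 (−1.157, adjusted p = 0.349), Ccl7 (0.20, adjusted p = 0.997), Cx3cl1 (−0.24, adjusted p = 0.997) and S100a4 (−0.93, adjusted p = 0.997) were not, in a fit that called 24 genes in all against 1589 without the score.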

How the results depend on the processing

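The number of called members moved with the processing in every comparison except diet-only against control, which had 0 calls throughout. In combined against control the 3 calls became 1 with no filter on low counts, 0 with limma and 0 with the clock score as a covariate. Cbr2 was gained there with the central nervous score or with only the groups compared, and Cx3cr1 without the 5 libraries with high atrial transcripts. Timd4 was lost after thinning, with only the groups compared and without those 5 libraries. In renin-only against control the 2 calls became 0 with a mean of at least 5 CPM, 0 with limma, 5 with only the groups compared (Mrc1, Folr2, Cbr2, Pf4 and C1qc), 1 with the clock score, 0 with the central nervous score and 0 without the 5 libraries with high atrial transcripts, the 1 alternative chosen after seeing the data. In combined against renin-only the 2 calls became 0 with upper-quartile factors, 0 with no filter, 0 with a mean of at least 5 CPM, 0 with limma, 1 after thinning to the smallest library, 6 with only the groups compared (Mpeg1, Ptprc, Mrc1, C1qa, Adgre1 and Laptm5), 0 with the clock score, 0 with the central nervous score and 1 without the atrial libraries. In combined against diet-only the 0 calls became 1 with DESeq2 (Folr2) and 1 without the atrial libraries (Cx3cr1, 0.68, adjusted p = 0.0466). With 1 heart left out the calls ranged from 0 to 3 in combined and in renin-only against control hearts, from 0 to 2 in combined against renin-only, and from 0 to 1 in combined against diet-only and in the interaction.

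With the clock score as a covariate the combined differences from control were −0.58 for Folr2 (adjusted p = 0.567), −0.79 for Timd4 (0.697) and 0.71 for Mpeg1 (0.599). With the central nervous score, those of renin-only were −0.11 for Mrc1 (0.966) and −1.001 for Folr2 (0.527), and the sign reversed for Ptprc (−0.25), Irf8 (−0.27) and Zbtb46 (−0.27) in combined against renin-only, for Ccl7 (−0.16) and March1 (−1.06) in renin-only against control, and for Ccl7 in the interaction (0.20). The cause was not tested. Fitting the replicate number as a block gave 2 calls in combined against control, 3 in renin-only against control, 0 for diet alone, 0 in combined against diet-only, 3 in combined against renin-only (Mrc1 among them, 0.38, adjusted p = 0.0172) and 1 in the interaction (Tyrobp, 0.96, adjusted p = 0.0370). The deviations of same-numbered hearts had a median correlation of 0.08 (28 pairs, −0.23 to 0.42). Other-numbered hearts had a median of −0.02 (136 pairs, −0.26 to 0.40), and 7 of 21 hearts correlated best with their own number. Heart 3 was rich in atrial transcripts in every group, with 756 CPM in control, 343 in renin-only, 697 in diet-only and 517 in combined hearts. Whether same-numbered hearts are related is not stated in the labels. Over all alternatives 83 member calls were lost with the sign kept, 1 (Ptprc) was lost with the sign reversed, and 22 were gained. Of 4545 values never called, 351 (7.72%) changed sign.

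Groups of 4 to 6 hearts, at most 34 reads of Timd4 per heart, whole tissue without cell counts, and a control group with the smallest libraries limit these comparisons. The renin-only group and the central nervous signal cannot be told apart. Nor can the clock score and the group, where renin-only or combined hearts are compared with control.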

Other observations

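Sums over other cell types, given as values, were read beside the macrophage genes. Cardiomyocyte transcripts summed to 49716 to 60656 CPM in control hearts, 46015 to 48294 in renin-only hearts, 46519 to 54905 in diet-only hearts and 40105 to 47106 in combined hearts. Transcripts of the platelet genes Ppbp, Itga2b, Gp9, Gp1ba and Treml1 summed to 4.33 to 7.74 CPM in control hearts, 3.95 to 8.42 in renin-only hearts, 4.01 to 6.80 in diet-only hearts and 3.36 to 11.2 in combined hearts. Their part in the macrophage values was not tested.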
